A study of Caenorhabditis elegans with 36 samples.

Results

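The transcriptional response of daf-16 mutant larvae of Caenorhabditis elegans to ultraviolet light (UV) is described from 6 of the 36 arrays of the study. The members were taken from the labels: 3 arrays of larvae labelled daf-16 and UV, and 3 arrays of larvae labelled daf-16 and untreated. Synchronized larvae of the first stage (L1) were fed for 4 h and harvested 6 h after treatment, and the study's design text calls the untreated larvae mock treated. The same strains were also starved, and 3 further strains went through the same treatments: the wild type N2, a daf-2 mutant and a daf-2;daf-16 double mutant. The 3 N2 UV arrays and 3 N2 untreated arrays are used here for the comparison with the wild type. Neither the daf-16 allele nor the UV dose is given in the sources used here, and the daf-16 mutation is carried by the UV and the untreated larvae alike. RNA came from whole larvae. The labels do not say whether replicates were grown separately, so the spread behind the p-values may be technical.

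DAF-16 is the FoxO transcription factor at the end of the worm's insulin/IGF pathway. Active signalling through the receptor DAF-2 keeps it out of the nucleus, and when signalling falls it enters the nucleus and activates genes of stress defence while other genes are repressed. UV leaves bulky lesions in DNA that stall transcription and replication, and nucleotide excision repair removes them. In young larvae persistent UV damage halts growth, and DAF-16 is known to be activated by such damage and to help larvae resume development. A response measured in daf-16 mutants therefore shows which transcripts change after UV in larvae with an impaired factor, without saying how much of it the mutation leaves.

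Values are log2 signals as deposited, so that a difference of 1 is a change of 2-fold within a probe set. They compare a gene with itself between arrays and not one gene with another. Changes are log2 fold changes ± standard error from limma, with 3 UV and 3 untreated arrays, and "called" means an adjusted p (Benjamini-Hochberg) under 0.05 over 22548 probe sets. Rose and fell are used of called genes only. Precision is limited by the 3 arrays in each group.

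After UV most listed infection response genes rose in daf-16 larvae, as did 46.7% of the glutathione S-transferases and 46.9% of the UDP-glucuronosyltransferases. Ribosome biogenesis genes rose for 22 of 35 (12 without UV replicate 3). Molting cycle genes fell for 29 of 49 (7 without UV replicate 3). Of 146 cuticle collagens 33 fell (10 without UV replicate 3) and 23 rose, the rises at 15.8% near the 11.9% of all genes. Of the 22548 probe sets tested 4288 were called, 2539 of them higher (11.3%) and 1749 lower (7.76%). At least 2-fold were 345 of the rises and 339 of the falls. Among 17118 genes, each read through the probe set with the highest mean signal, 2036 rose (11.9%) and 1426 fell (8.33%). The rises and falls did not rest on the 3 UV arrays alike. Without UV replicate 3, 1334 genes rose (7.79%) and 587 fell (3.43%), and 1324 of the 2036 rises but 539 of the 1426 falls were called again in the same direction.

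UV replicate 3 stood apart from replicates 1 and 2. Over all probe sets the differences between replicates 1 and 2 had a standard deviation of 0.255, those between 1 and 3 of 0.394 and those between 2 and 3 of 0.327, while pairs of untreated arrays gave 0.186 to 0.203. The Gapdh control probe sets, whose difference between the 3' and 5' ends is a sign of RNA quality, read 0.60, 0.52 and 0.48 in UV replicates 1, 2 and 3, against 0.86, 0.68 and 0.62 in the untreated arrays, without overlap. The same difference for actin overlapped between the groups. The part of RNA quality in the results was not tested. Replicate 3 read as the other daf-16 arrays in genes that separate the strains: bgal-2, a beta-galactosidase gene, read 4.84, 5.73 and 4.53 in daf-16 UV replicates 1, 2 and 3, against 8.06, 7.78 and 7.66 in N2 UV. In the same order nhj-1, a DNA end joining gene, read 9.52, 9.72 and 9.65 in daf-16 UV, against 7.73, 7.37 and 7.15 in N2 UV. Both genes are read by probe sets that can share targets, and they were chosen because they differ between the strains, after their values were seen. Their reading in replicate 3 may have been fixed by that choice and tests nothing.

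The daf-16 gene itself, on chromosome I, was read by 4 probe sets. The one that represents the gene read 8.92, 8.78 and 9.22 in daf-16 UV and 8.67, 8.78 and 8.72 in daf-16 untreated larvae, a difference of 0.25 ± 0.10 that was not called (adjusted p = 7.6e-02). A second read 7.81, 7.41 and 7.53 after UV against 7.23, 7.06 and 7.07 untreated and rose by 0.46 ± 0.12 (adjusted p = 4.5e-03). The other 2 were not called, with differences of 0.12 and -0.11. Since the allele is not given, these probe sets check nothing about the mutation.

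The largest rise was that of pgp-8, a P-glycoprotein transporter of the ABC family that exports small molecules. It read 7.75, 7.38 and 8.47 in UV replicates 1, 2 and 3, against 4.31, 4.21 and 4.10 untreated, a rise of 3.66 ± 0.17 or 12.7-fold (adjusted p = 1.1e-16). All UV arrays lay far above all untreated arrays, and replicate 3 was the highest. dod-22, a CUB-domain gene known as repressed by DAF-16 and induced by infection, read 9.35, 8.60 and 9.37 after UV against 5.72, 5.34 and 5.48 untreated (3.59 ± 0.27, 12.1-fold, adjusted p = 1.3e-11). The infection response gene irg-5 read 9.66, 9.30 and 10.18 against 6.30, 6.45 and 6.37 (3.34 ± 0.24, 10.1-fold), and the glutathione S-transferase gene gst-24 read 10.42, 10.18 and 11.07 against 7.31, 7.47 and 7.50 (3.13 ± 0.18, 8.77-fold). The 12 largest rises and 12 largest falls were taken only from called genes whose groups do not overlap. Their lack of overlap was therefore fixed by the choice and is no result. Each of the genes above had its highest value in replicate 3.

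Collagens of the cuticle were also among the 12 largest rises. col-159, read by a probe set that can share targets with other transcripts, was at 10.99, 10.73 and 11.44 in UV arrays against 7.16, 7.91 and 7.50 in untreated arrays (3.53 ± 0.28), and col-39 at 8.28, 8.27 and 8.92 against 5.17, 5.44 and 5.51 (3.12 ± 0.22). The lipase-related gene lips-11 read 7.86, 7.94 and 9.21 after UV against 5.39, 5.55 and 5.25 untreated (2.94 ± 0.22), so that replicate 3 exceeded the other UV arrays by more than they differed from each other. The rest were C49G7.12 (3.50), F20G2.1 (3.03), dbd-17 (2.94), F54B8.4 (2.85) and B0416.7 (2.85). All 12 were called without UV replicate 3, in a model of the 6 arrays alone and with each other array of the comparison left out in turn.

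The largest falls differed from the rises in how the UV arrays lay. F33D4.6 read 9.98, 8.81 and 7.02 in UV replicates 1, 2 and 3, against 11.14, 10.82 and 10.58 untreated, a log2 change of -2.24 ± 0.56 that leaves it 4.72-fold lower (adjusted p = 3.9e-03). UV replicate 3 lay well below the other UV arrays and replicate 1 was nearest to the untreated arrays. Y53F4B.27 read 8.21, 7.33 and 5.39 against 9.47, 8.92 and 9.04 (-2.17 ± 0.48, adjusted p = 1.4e-03). K02E7.1 read 7.31, 6.99 and 5.22 against 8.89, 8.44 and 8.43 (-2.08 ± 0.42, adjusted p = 5.0e-04). In each of them all 3 UV arrays were below all untreated arrays, as the choice of genes required, with steps of unequal size.

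Genes of the cuticle and of secreted signals made up part of these 12 falls. The cuticlin gene cut-2, a structural component of the cuticle read by a probe set that can share targets, was at 11.40, 10.05 and 8.54 in UV arrays, against 12.27, 11.89 and 11.52 in untreated arrays (-1.90 ± 0.38). The hedgehog-related gene grl-2 was at 7.13, 6.51 and 5.05 against 8.36, 8.0 and 7.99 (-1.89 ± 0.36), and its relative wrt-4 at 9.27, 8.81 and 6.59 against 10.37, 10.01 and 9.90 (-1.87 ± 0.54). The others were F49E10.2 (-2.09), elf-1 (-1.99), R05G6.9 (-1.96), gtnt-16 (-1.86), C07E3.10 (-1.85) and pqn-13 (-1.82). Without UV replicate 3, 6 of the 12 falls were called, and in a model of the 6 arrays alone also 6. The largest falls without that array, by the same rule, were K02E7.1 (-1.44), Y53F4B.27 (-1.38), R05G6.9 (-1.36), pqn-13 (-1.34), H10E21.4 (-1.33), lrx-1 (-1.31), grl-2 (-1.30) and grl-5 (-1.28).

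**Figure D1:**
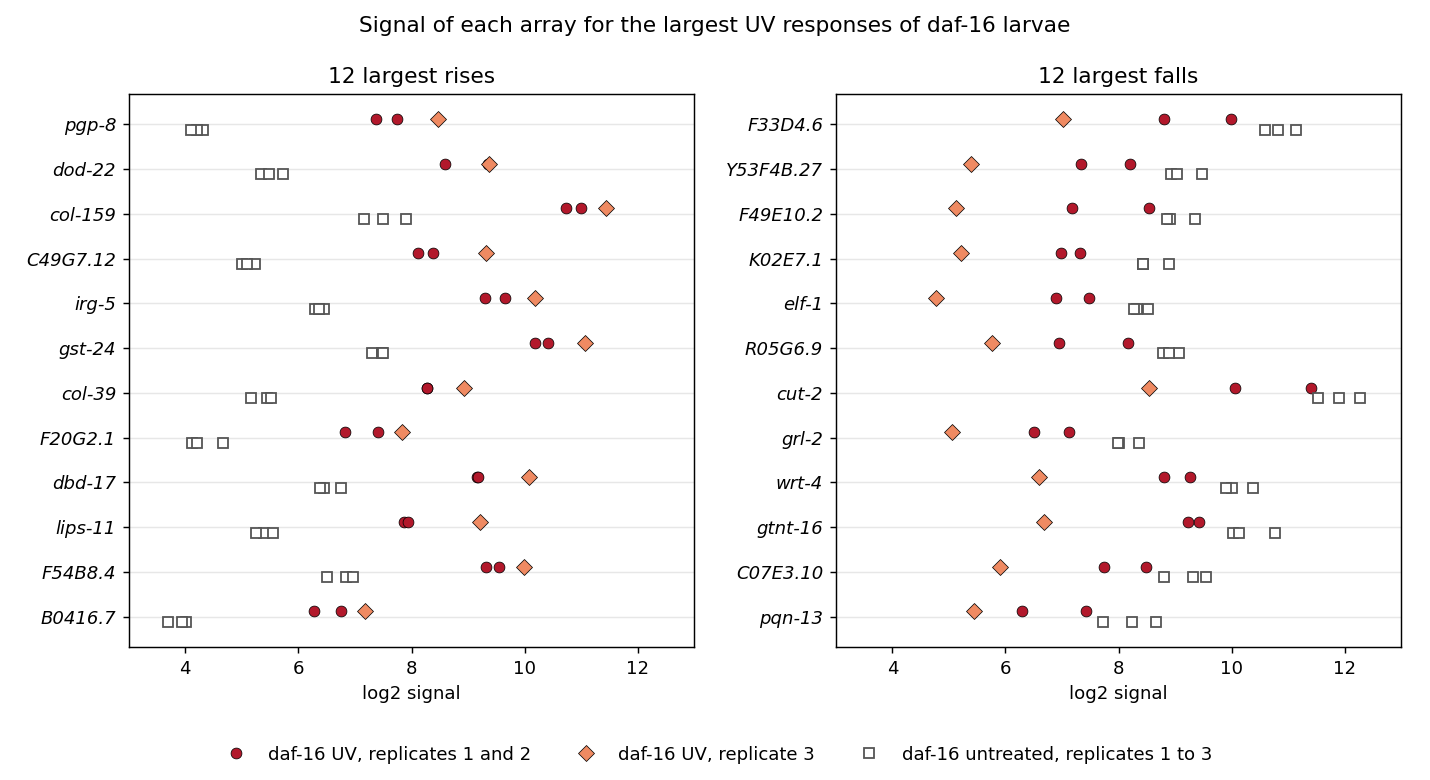
Log2 signal (horizontal axis) of the 12 genes with the largest rises and the 12 with the largest falls in daf-16 larvae, with 1 point per array. Only called genes without overlap of the groups were eligible. Filled circles are UV replicates 1 and 2, diamonds UV replicate 3 and open squares the 3 untreated arrays. In the rises all UV arrays lie far above the untreated ones with replicate 3 highest, while in the falls replicate 3 lies lowest, as for F33D4.6 at 7.02 beside 9.98 and 8.81.

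Many genes of the glutathione S-transferase and UDP-glucuronosyltransferase families rose, though not most of either. Glutathione S-transferases couple glutathione to reactive compounds. Of 45 measured, 21 rose and 2 fell, with a median change of 0.24 beside -0.02 over all genes. After gst-24 the largest were gst-41 (2.06), gst-15 (1.74) and gst-12 (1.68), while gst-4, the usual reporter of the oxidative stress factor SKN-1, read 9.40, 9.28 and 9.70 after UV against 8.59, 8.65 and 8.36 untreated (0.93 ± 0.14). Of 64 UDP-glucuronosyltransferases, which attach sugars to small molecules, 30 rose and 3 fell (median 0.31). Among them ugt-13 read 8.13, 7.75 and 8.51 in UV arrays against 4.95, 5.62 and 5.51 in untreated arrays (2.77 ± 0.16, 6.82-fold).

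Transporters that export the products and oxidases that precede them were listed apart. Of 53 ABC transporters 19 rose and 3 fell (median 0.07), among them pgp-14 (2.32) and pgp-5 (1.76). Of 73 cytochrome P450 genes, oxidases of foreign and internal compounds, 8 rose (a share near the 11.9% of all genes) and 3 fell (median 0.05), the largest rises being cyp-32A1 (1.92) and cyp-33C8 (1.65). Without UV replicate 3 the rises numbered 19 of the glutathione S-transferases, 26 of the UDP-glucuronosyltransferases, 17 of the ABC transporters and 5 of the P450 genes, and the falls 0, 3, 0 and 2. Genes of oxidative stress defence rose for 8 of 31 (3 without replicate 3), with a median of 0.08, and included gpx-6 (0.70) and sod-1 (0.23).

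Genes of the response to infection rose too. Of 14 measured members of a list of infection response and CUB-domain genes, 11 rose and none fell, by a median of 0.94. The count was 11 without UV replicate 3 as well. irg-2 read 6.50, 6.28 and 7.02 in UV arrays against 4.21, 4.74 and 4.69 in untreated arrays (2.06 ± 0.16, 4.16-fold), and irg-4 read 10.97, 10.53 and 11.40 against 9.11, 9.30 and 9.18 (1.77 ± 0.20). zip-2, a bZIP transcription factor that responds to blocked translation and to Pseudomonas, read 11.79, 11.60 and 11.96 after UV against 10.67, 10.91 and 10.92 untreated (0.95 ± 0.08, adjusted p = 8.6e-11). The UV and untreated arrays of these genes did not overlap.

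Secreted defence proteins were read as 2 lists. Of 220 C-type lectins, which bind sugars, 35 rose (15.9%, near the 11.9% of all genes) and 8 fell (3.64%, against 8.33%). The lectin median was -0.03, and the rises included clec-3 at 1.98, clec-41 at 1.87 and clec-67 at 1.79. A list of 47 lysozymes, saposin-like proteins and antimicrobial peptides held 12 rises (25.5%, against 11.9%) and 5 falls (10.6%, near 8.33%), with a median of 0.04. Among these the lysozyme gene lys-2 read 11.74, 11.41 and 12.16 against 9.87, 10.12 and 9.89 (1.81 ± 0.15), while spp-13 had -1.71 ± 0.57 with values of 8.33, 7.26 and 5.07 after UV against 8.80, 8.65 and 8.36 untreated. That fall was not called without replicate 3 (adjusted p = 3.7e-01). Without that array 25 lectins rose and 2 fell, and of the other list 11 rose and 2 fell.

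Peptides that the epidermis makes upon wounding or fungal infection rose for 6 of 14 measured genes, with and without UV replicate 3. nlp-27 read 8.39, 8.30 and 8.93 in UV arrays against 6.88, 7.22 and 7.36 in untreated arrays (1.39 ± 0.15), and nlp-29 read 8.32, 8.12 and 8.57 against 7.01, 7.45 and 6.95 (1.20 ± 0.16). The caenacin gene cnc-4 read 7.17, 6.71 and 7.48 against 6.04, 6.19 and 5.73 (1.13 ± 0.19). Neighbouring genes of the nlp cluster share sequence, and the probe sets of nlp-27, nlp-29 and nlp-31 can share targets. Of the 23 pals genes, whose best studied members respond to virus and microsporidia, 5 rose (3 without UV replicate 3), among them pals-6 at 5.49, 4.67 and 5.80 against 3.88, 3.85 and 3.88 (1.45 ± 0.19).

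Genes known as targets of DAF-16 were read as 2 lists, those it represses and those it activates. Of 10 measured repressed genes 9 rose, with a median of 1.17 (7 rose without UV replicate 3, median 1.04). Besides dod-22 these included K10D11.2 (1.80), C32H11.4 (1.55), F55G11.8 (1.23) and dod-17, which read 9.56, 9.11 and 9.78 after UV against 8.35, 8.33 and 8.15 untreated (1.21 ± 0.16). Several of them are also known as infection response genes. In N2 all 10 rose, with a median of 1.64.

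Of 22 measured DAF-16-activated genes 5 rose (22.7%, against 11.9% of all genes) and 1 fell (4.55%, against 8.33%), with a median of 0.05. In N2 9 rose and 1 fell, where 14.2% of all genes rose and 15.6% fell. The rises in daf-16 were dod-3 (1.51 ± 0.27), gst-14 (1.38 ± 0.21), sip-1, which encodes a small heat shock protein (0.98 ± 0.13), the trehalose synthase gene tps-1 (0.83) and the metallothionein gene mtl-1 (0.62), the last not called without UV replicate 3. The fall in daf-16 was hsp-16.2, of the same protein family as sip-1 (-0.44 ± 0.13). sod-3, the mitochondrial superoxide dismutase that serves as the standard reporter of DAF-16, read 5.72, 5.71 and 5.98 in UV arrays and 5.83, 5.93 and 5.91 in untreated arrays, with overlap (-0.09 ± 0.13, adjusted p = 7.2e-01). far-3, a fatty acid and retinol binding protein gene, read 5.50, 5.27 and 5.39 against 5.11, 5.14 and 5.02 (0.29 ± 0.21, adjusted p = 3.7e-01).

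**Figure D2:**
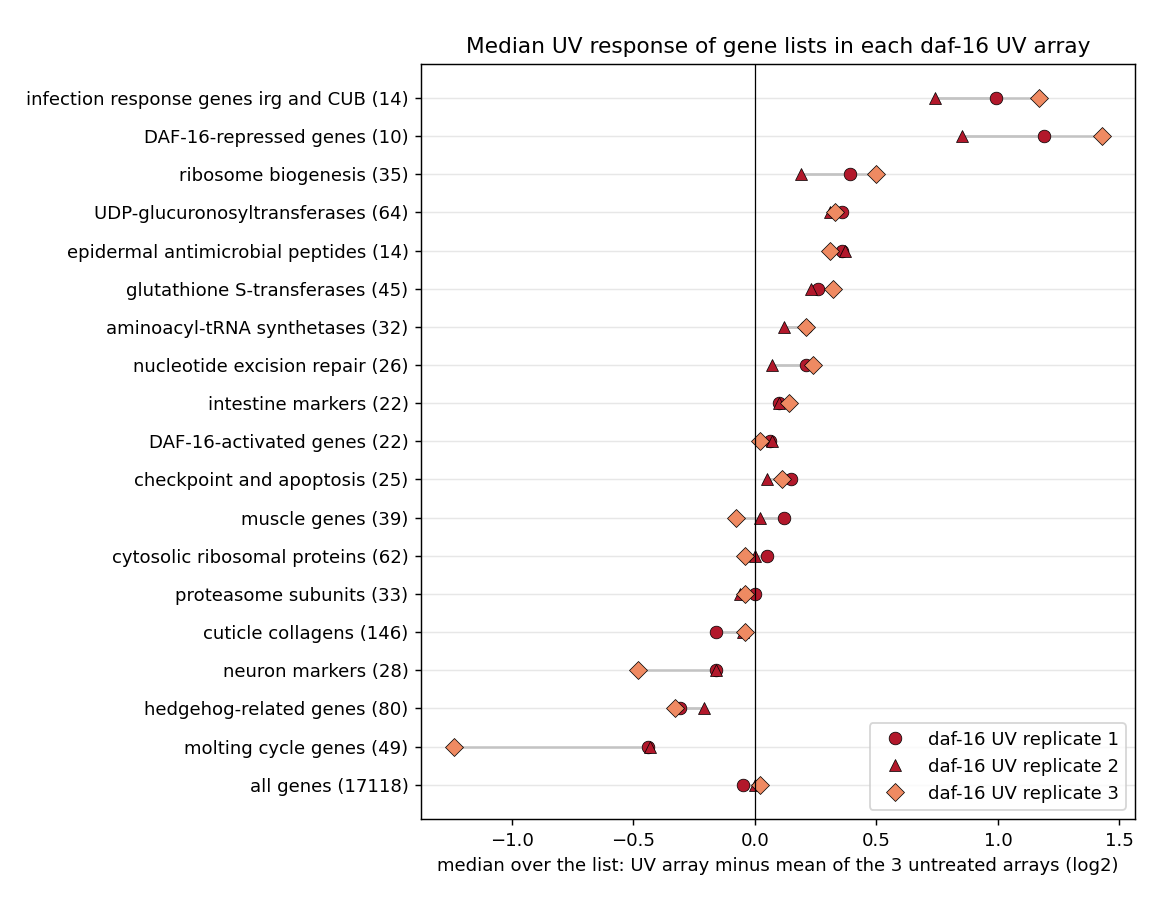
Median over each gene list (number of measured genes in brackets) of the log2 difference between 1 UV array and the mean of the 3 untreated daf-16 arrays. Circles are UV replicate 1, triangles replicate 2 and diamonds replicate 3. The 3 arrays lie close together for the UDP-glucuronosyltransferases (0.36, 0.31 and 0.33) and far apart for the molting cycle genes (-0.44, -0.43 and -1.24).

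Genes of ribosome assembly rose, whereas the ribosomal proteins were not called. Of 35 ribosome biogenesis genes 22 rose and none fell, with a median of 0.35. The GTPase gene nog-1 read 10.75, 10.68 and 11.25 after UV against 9.76, 9.62 and 9.51 untreated (1.26 ± 0.11, 2.40-fold, adjusted p = 7.5e-10), and eif-6, needed to mature the large subunit, read 10.46, 10.39 and 10.87 against 9.59, 9.60 and 9.70 (0.94 ± 0.14). Without UV replicate 3, 12 rose. The median of this list was 0.39, 0.19 and 0.50 in UV replicates 1, 2 and 3. None of 62 cytosolic ribosomal protein genes was called in limma (median -0.01), where 2 were higher and none lower at an unadjusted p under 0.05, and 4 fell after quantile normalization.

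Aminoacyl-tRNA synthetases, which charge tRNAs with amino acids, rose for 9 of 32 (6 without UV replicate 3) and fell for none. sars-1, the seryl-tRNA synthetase gene, read 12.40, 12.12 and 12.42 in UV arrays against 11.60, 11.57 and 11.64 in untreated arrays (0.71 ± 0.09). Of 33 proteasome subunit genes 1 rose and none fell (median -0.03), but 5 fell after quantile normalization. Chaperone genes rose for 1 (2.56%) and fell for 3 (7.69%) of 39, against 11.9% and 8.33% of all genes. None of these 4 was called without UV replicate 3. The endoplasmic reticulum chaperone gene hsp-4 (-0.23 ± 0.15, adjusted p = 3.2e-01) and the mitochondrial hsp-6 (0.15 ± 0.10, adjusted p = 3.1e-01), reporters of the 2 unfolded protein responses, were not called.

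DNA repair genes that were called changed by less than 1 on the log2 scale. Of 26 nucleotide excision repair genes, whose products recognise UV lesions, open the DNA and cut out the damaged strand, 6 rose (23.1%, against 11.9% of all genes) and 1 fell, with a median of 0.12. Without UV replicate 3, 4 rose and 1 fell. Those called included uvs-1, which read 6.74, 6.51 and 6.99 after UV against 6.10, 6.01 and 5.99 untreated (0.71 ± 0.15), the damage binding gene ddb-1 at 8.31, 8.03 and 8.19 against 7.66, 7.86 and 7.70 (0.44 ± 0.09) and the nuclease gene xpg-1 at 6.70, 6.68 and 6.63 against 6.26, 6.28 and 6.24 (0.41 ± 0.12). The groups did not overlap for these 3 genes. xpc-1, the lesion sensor of global genome repair, read 7.39, 7.33 and 7.53 against 7.71, 7.70 and 7.70 and fell by 0.29 ± 0.09 on the log2 scale (adjusted p = 1.5e-02). xpa-1, which every branch of the pathway needs, was not called (0.27 ± 0.11, adjusted p = 1.0e-01).

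Among 25 checkpoint and apoptosis genes 2 rose (8.0%, against 11.9% of all genes), and 1 without UV replicate 3. atl-1, the worm's ATR kinase that senses stalled replication, read 9.48, 9.36 and 9.86 in UV arrays against 8.81, 8.81 and 8.85 in untreated arrays (0.75 ± 0.09, adjusted p = 4.6e-07), and sir-2.1 rose by 0.28. The p53 homologue cep-1 (-0.22 ± 0.09, adjusted p = 1.1e-01) and its apoptotic target egl-1 (0.22 ± 0.11, adjusted p = 1.6e-01) were not called. Of 33 genes of recombination, end joining and translesion synthesis 5 rose (15.2%, near the same 11.9%), and 3 without UV replicate 3. The 5 included rad-50 at 0.71 ± 0.14, the translesion polymerase gene rev-1 at 0.51 ± 0.13 and lig-4, a ligase of end joining, at 0.35. polh-1, the polymerase that copies across UV lesions, was not called (0.10 ± 0.13, adjusted p = 6.6e-01). The cell cycle inhibitor gene cki-2 rose by 0.70 ± 0.12, with 6.90, 6.81 and 6.87 against 6.13, 6.31 and 6.05.

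Of 259 nuclear hormone receptors 40 rose (15.4%, near the 11.9% of all genes) and 6 fell (2.32%, against 8.33%). Without UV replicate 3 the counts were 28 and 1, and the median over all 3 UV arrays was 0.08. The largest rises were nhr-7 (1.26 ± 0.15) and nhr-206 (1.04). Of 23 components of the insulin and FoxO pathway none rose and 2 fell (8.7%, near the 8.33% of all genes). The falls were the kinase gene jnk-1 (-0.71) and the phosphatase subunit gene pptr-1 (-0.43), neither of them called without UV replicate 3. Of 13 genes of GATA factors and of their partner EGL-27 none was called in limma (median -0.09), where 2 were lower at an unadjusted p under 0.05 and 1 fell after quantile normalization. Among them was egl-27 at 9.19, 9.12 and 8.96 after UV and 9.10, 9.28 and 9.15 untreated. The epidermal GATA factor gene elt-3 was at 0.10 ± 0.09 (adjusted p = 4.7e-01).

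**Figure D3:**
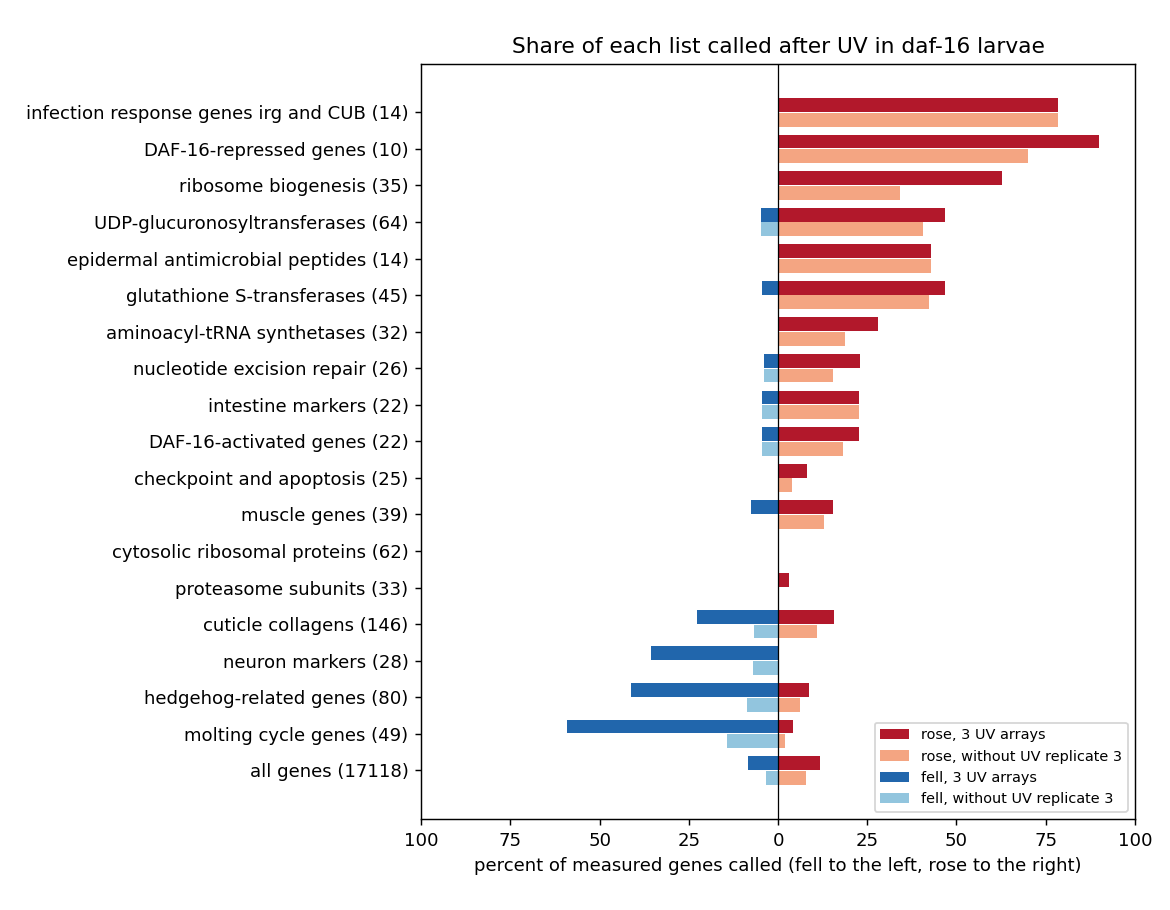
Percentage of the measured genes of each list (number in brackets) that fell (bars to the left) or rose (bars to the right) after UV in daf-16 larvae, with all 3 UV arrays (dark) and without UV replicate 3 (light). Rises are as many both ways for the infection response genes (11 of 14) but fewer without replicate 3 for ribosome biogenesis (22 of 35, and 12). Falls shrink for the molting cycle genes (29 of 49, and 7 without replicate 3) and stay at 3 of 64 for the UDP-glucuronosyltransferases.

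Molting genes fell, and how far depended on the array. At each larval stage transcripts for building and shedding the cuticle pass through a wave of expression. Of 49 such genes 29 fell and 2 rose, with a median of -0.72. Without UV replicate 3, 7 fell and 1 rose, with a median of -0.40. The mean log2 difference of this list from the average of the 36 arrays was 1.56, 1.5 and 0.61 in UV replicates 1, 2 and 3, against 1.94, 1.87 and 1.85 untreated, so that replicates 1 and 2 were much nearer to the untreated arrays than replicate 3. The same score was 0.60, 0.34 and 0.76 in N2 UV arrays.

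Single genes of the list show the same order. bah-1, needed for the surface that bacteria adhere to, read 8.91, 8.21 and 5.83 in UV replicates 1, 2 and 3, against 9.66, 9.30 and 9.16 untreated (-1.72 ± 0.54, adjusted p = 2.3e-02, and 3.2e-01 without replicate 3). The furrow collagen gene dpy-7 read 11.42, 11.50 and 9.98 against 12.10, 12.16 and 12.12 (-1.16 ± 0.31, and not called without replicate 3, adjusted p = 1.4e-01). mlt-9, required for molting, read 10.29, 10.07 and 8.47 against 11.04, 11.09 and 10.90 (-1.40 ± 0.31, and still called without replicate 3, adjusted p = 3.6e-02). mlt-7, a peroxidase gene that cross-links cuticle proteins, went the other way at 8.43, 8.37 and 9.06 against 7.03, 7.13 and 6.77 (1.64 ± 0.16). The molting regulator nhr-23 was not called (0.18 ± 0.12, adjusted p = 3.7e-01).

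In related families the share of falls was above that of all genes, while the share of rises was near or below it. Of 146 cuticle collagens 23 rose (15.8%, near the 11.9% of all genes) and 33 fell (22.6%, against 8.33%). Without UV replicate 3, 16 rose and 10 fell. The rises included col-80 (2.35), col-98 (2.29) and col-160 (2.14), the falls col-90 (-1.67) and rol-6, which read 11.95, 11.60 and 9.58 after UV against 12.91, 12.68 and 12.55 untreated (-1.66 ± 0.45). Of 80 hedgehog-related genes 7 rose (8.75%) and 33 fell (41.2%), against 11.9% and 8.33% of all genes. These genes encode secreted ligands of the epidermis and their patched-like partners. Without replicate 3, 5 rose and 7 fell, where 7.79% of all genes rose and 3.43% fell. grl-4 was the largest rise at 8.10, 8.23 and 8.89 against 5.74, 6.18 and 6.16 (2.38 ± 0.27). Astacin metalloproteases, some of which cut the old cuticle, rose for 5 (15.2%, near 11.9%) and fell for 10 (30.3%) of 33, with nas-15 lowest (-1.77 ± 0.38). Without replicate 3, 5 astacin genes rose and 5 fell.

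Markers of tissues were read to see what else moved with UV. Of 28 neuron markers 10 fell and none rose (2 without UV replicate 3), with a median of -0.25, and the summed linear signal of the list was 10802, 10645 and 8215 in UV replicates 1, 2 and 3, against 11469, 11087 and 10927 untreated. The calcium channel gene unc-2 read 6.34, 6.80 and 6.05 against 7.12, 7.27 and 7.21 (-0.80 ± 0.16), and unc-47, the vesicular GABA transporter gene, read 6.09, 6.10 and 5.89 against 6.56, 6.57 and 6.63 (-0.56 ± 0.10), both called without replicate 3 as well. Fewer cells of a type and less RNA per cell cannot be told apart in whole larvae. None of 38 cilia genes was called in limma, where 2 were higher and 6 lower at an unadjusted p under 0.05.

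Of 22 intestine markers 5 rose and 1 fell, with sums of 82979, 83065 and 80277 after UV and 79320, 78548 and 82057 untreated, which overlap. The fall was cpr-6, a cathepsin B protease gene (-0.80 ± 0.13), and ifc-2, an intestinal filament gene, was the largest rise (0.72 ± 0.08). Of 39 muscle genes 6 rose (15.4%, near the 11.9% of all genes) and 3 fell (7.69%, near 8.33%). The median was 0.0, and without UV replicate 3 the counts were 5 and 0. The rises included the pharyngeal genes myo-2, which read 9.45, 9.43 and 9.84 against 8.66, 9.06 and 9.08 (0.64 ± 0.12), tnc-2 (0.51), tni-4 (0.44) and myo-1 (0.43), which encode myosins and troponins. These genes were picked from the 6 rises and do not show a rise of pharynx genes as a set. Hypodermis and seam markers summed to 12681, 12294 and 10358 after UV and to 12829, 13201 and 13196 untreated, without overlap. Over the 14 genes of that list the median change was 0.14, opposite in sign to the sums, and 4 rose and 3 fell (2 and 0 without UV replicate 3). Adult germ line and yolk markers, a check of the stage, had low sums of 543, 638 and 699 after UV and 637, 680 and 627 untreated. The part of these markers in the gene changes was not tested.

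UV replicate 3 went further along the response in both directions. Among the 291 genes that rose at least 2-fold it was the highest UV array in 272 and the lowest in 3, and 289 of the 291 were called without it. Among the 282 that fell at least 2-fold it was the lowest UV array in 282, and 126 of the 282 were called without it. These genes were chosen on values that include the array, so that the counts describe it and test nothing. The genes highest in replicate 3 against the mean of replicates 1 and 2, among genes of sufficient signal (the dimmest 33.3% left out), were lips-11, F49H12.2, F25D1.5, ZK512.7, Y51B9A.8, ZK177.9, C49G7.12 and the dehydrogenase gene dhs-23. Those lowest were K08E7.5, chtb-1, F49E10.2, T06G6.6, bah-1, itm-2, spp-13 and grl-7.

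A yardstick whose fold changes hold none of these 6 arrays is the response of N2, although the model took its spread from all arrays. In N2 2426 genes rose (14.2%) and 2662 fell (15.6%). Among 472 genes that rose at least 2-fold in N2, medians were taken of the difference from the untreated mean of the same strain. The medians were 1.00, 0.89 and 1.36 in daf-16 UV replicates 1, 2 and 3, against 1.48, 1.52 and 1.42 in the N2 UV arrays. In daf-16 440 of these genes rose, and 411 without replicate 3. Among 516 genes that fell at least 2-fold in N2 the medians were -0.51, -0.71 and -1.75 in daf-16 UV replicates 1, 2 and 3, against -1.57, -1.78 and -1.50 in N2. In daf-16 443 fell, and 172 without replicate 3, which was the lowest UV array in 509. None of these genes was called in the opposite direction in daf-16. Both sets of genes were chosen on the N2 arrays, which enlarges the N2 medians. Those medians therefore do not show how far the daf-16 response falls short of that of N2.

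Across 17118 genes, which share arrays and are not independent, the slope of the daf-16 difference on the N2 response was 0.41, 0.47 and 0.91 for UV replicates 1, 2 and 3. The correlation was 0.60, 0.77 and 0.87 in the same order. UV replicate 3 minus the mean of replicates 1 and 2 correlated with the N2 response at 0.72 (Spearman 0.53). This correlation is a description of 1 array, and agreement in sign was not counted.

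**Figure D4:**
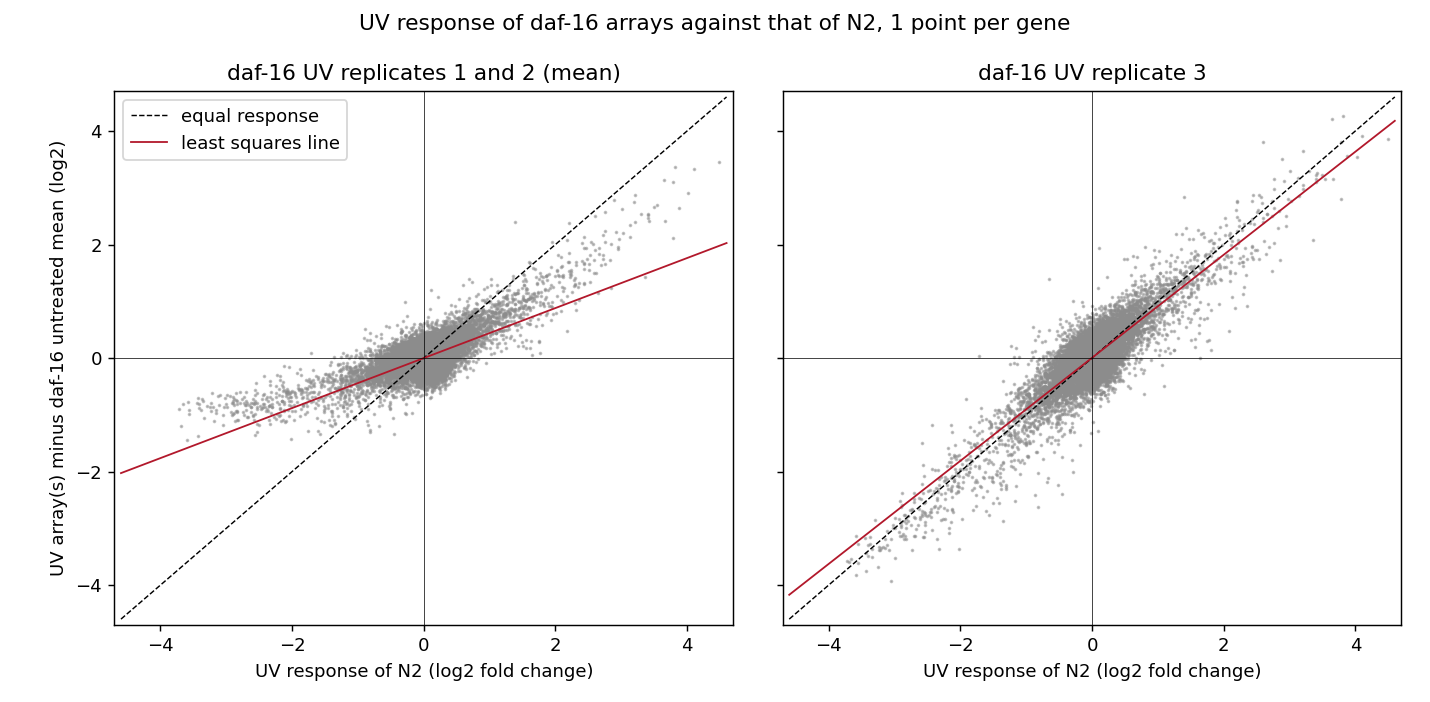
UV response of daf-16 (vertical axis, UV arrays minus the mean of the untreated daf-16 arrays, log2) against that of N2 (horizontal axis, log2 fold change), with 1 point per gene, for the mean of UV replicates 1 and 2 on the left and for replicate 3 on the right. The dashed line marks equal responses and the solid line is the least squares line. Falls reach much further in replicate 3, whose slope is 0.91, than in replicates 1 and 2, with slopes of 0.41 and 0.47.

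The difference between the UV responses of daf-16 and N2 was tested directly. The response was higher in daf-16 for 191 genes (1.12%) and lower for 136 (0.794%). Without daf-16 UV replicate 3 the counts were 746 higher (4.36%) and 398 lower (2.33%), and 316 of the 327 genes called with it were called again. Over probe sets the count was 417, with 235 higher and 182 lower, against 136 higher and 212 lower after quantile normalization. Leaving out any 1 of the 12 arrays moved it by more than 1.5 times: it was 1493 without daf-16 UV replicate 3, 1413 without N2 UV replicate 1 and 97 to 230 without any of the other 10. In a model of the 12 arrays alone it was 38 probe sets or 31 genes, 28 of which were among the 327.

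Responses smaller in daf-16 than in N2 included several secreted or metabolic genes. ugt-29, read by a probe set that can share targets, was at 8.48, 8.26 and 9.02 in daf-16 UV arrays and 6.75, 6.80 and 7.27 in daf-16 untreated arrays, a rise of 1.65 ± 0.23. In N2 it was at 9.0, 9.30 and 8.92 after UV and 5.68, 5.76 and 5.70 untreated, so that the difference between the responses was -1.71 ± 0.33 (adjusted p = 8.3e-03). Here the untreated daf-16 arrays lay above the untreated N2 arrays while the UV arrays of the strains were close. far-3 instead lay at 7.02, 7.02 and 7.03 in N2 UV arrays and at 5.42, 5.24 and 5.15 in N2 untreated arrays, and its daf-16 values given above lay between 5.02 and 5.50 in all 6 arrays (difference -1.46 ± 0.29, adjusted p = 9.4e-03). drd-50 read 6.78, 6.87 and 7.33 in daf-16 UV and 5.71, 5.50 and 5.58 in daf-16 untreated arrays, with N2 at 8.47, 8.73 and 8.40 after UV and 5.76, 5.66 and 5.61 untreated (difference -1.46 ± 0.23). These 3 genes were also called in the 12 arrays alone.

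Further genes with the smaller response in daf-16 were the collagen gene col-80, which rose by 2.35 in daf-16 and 3.78 in N2, the lectin gene clec-174 (0.61 and 2.17) and F55G11.7 (0.42 and 1.75). The low-signal gene Y60C6A.1 was not called in daf-16 (0.03) and rose in N2 (1.64), as did fipr-24, a peptide gene read by a shared probe set (0.17, not called, and 1.77). Of these 5 genes all but fipr-24 (adjusted p = 5.8e-02) were also called in the 12 arrays alone. Among the DAF-16-activated genes 4 of 22 had a lower response than in N2 and none a higher one, against 0.794% and 1.12% of all genes. The list was chosen with earlier results of these data known. The 4 genes were sip-1, sod-3, far-3 and the transhydrogenase gene nnt-1. sip-1 read 7.05, 7.06 and 7.64 after UV and 6.24, 6.23 and 6.37 untreated in daf-16, with 8.32, 8.62 and 8.74 after UV and 6.78, 6.40 and 6.63 untreated in N2 (difference -0.98 ± 0.18, adjusted p = 6.3e-03). For sod-3 the difference was -0.79 ± 0.18 (adjusted p = 2.4e-02) and for nnt-1 -0.98 ± 0.26 (adjusted p = 4.2e-02). Of these 4 genes far-3 was called in the 12 arrays alone.

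Responses higher in daf-16 than in N2 were of several kinds, counted over genes called in daf-16 and in the difference. There were 24 genes that rose in daf-16 with a change above that in N2 and 41 that fell with a change above it, beside 58 that rose and 26 that fell with a change below it. The F-box gene fbxa-209 was at 6.80, 6.29 and 6.07 in daf-16 UV and 6.92, 6.70 and 6.80 in daf-16 untreated arrays, with N2 at 4.99, 4.20 and 4.68 after UV and 6.63, 6.53 and 6.48 untreated (difference 1.5 ± 0.23, adjusted p = 1.2e-03). The fall seen in N2 was thus not called in daf-16. The other 7 largest were T26E4.4 (1.82), F25D1.3 (1.59), nep-16, a neprilysin peptidase gene (1.57), C15F1.2 (1.56), ugt-59 (1.45), R02E4.1 (1.42) and the F-box gene fbxa-72 (1.41). Of these 8 genes fbxa-209 and fbxa-72 were called in the 12 arrays alone.

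Some genes rose in daf-16 larvae but fell or were not called in N2. pals-6, with its daf-16 values given above, read 4.22, 3.96 and 3.86 in N2 UV and 3.95, 3.99 and 3.78 in N2 untreated arrays, with overlap (difference 1.34 ± 0.26, adjusted p = 8.6e-03). The epidermal peptide genes nlp-29 (difference 0.97 ± 0.23) and nlp-31 (0.89 ± 0.24) rose in daf-16 by 1.20 and 0.98. In N2, nlp-29 read 8.67, 8.40 and 7.68 after UV and 7.94, 8.14 and 8.0 untreated, so that the untreated N2 arrays lay above the untreated daf-16 arrays. fat-7, a stearoyl-CoA desaturase gene, read 7.81, 7.52 and 8.64 in daf-16 UV and 7.45, 7.11 and 7.19 in daf-16 untreated arrays, but 6.26, 5.94 and 6.30 in N2 UV and 7.09, 6.70 and 6.65 in N2 untreated arrays (difference 1.39 ± 0.32, adjusted p = 2.2e-02). The rise of fat-7 within daf-16 was not called without UV replicate 3 (adjusted p = 2.4e-01), while its difference from N2 was (adjusted p = 2.4e-02). None of the differences of these 4 genes was called in the 12 arrays alone (adjusted p = 8.5e-02 for pals-6, 1.7e-01 for nlp-29, 1.4e-01 for nlp-31 and 9.7e-02 for fat-7).

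**Figure D5:**
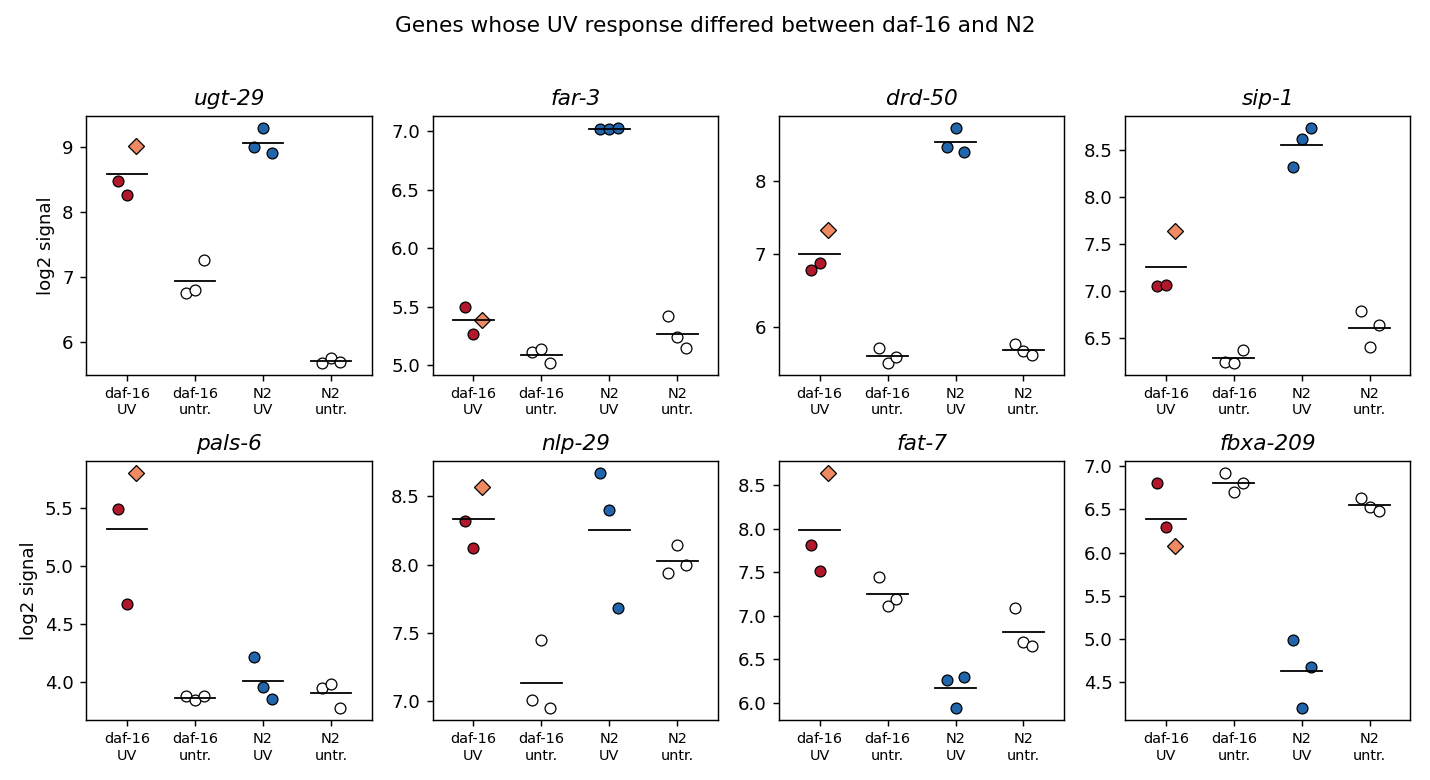
Log2 signal of 8 genes whose UV response differed between daf-16 and N2, in the order daf-16 UV, daf-16 untreated, N2 UV and N2 untreated, with 1 point per array, bars at the means and UV replicate 3 of daf-16 as a diamond. ugt-29, far-3, drd-50 and sip-1 responded less in daf-16, and pals-6 and nlp-29 more; fat-7 rose in daf-16 and fell in N2, and the fall of fbxa-209 in N2 was not called in daf-16.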

How the data were processed

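RNA from whole larvae was hybridised to an Affymetrix C. elegans array, 1 array per sample, 36 arrays in all. The deposited values are on a log2 scale, and per the submitters' processing notes the authors used Affymetrix Power Tools. The sources used here give neither its version nor the summary method. Array medians lay between 5.79 and 5.878, and the values were used as deposited.

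Of 22625 probe sets, 77 controls were left out. Names came from the platform annotation: 20766 probe sets had 1 symbol (20701 updated by gene identifier to current symbols, 65 kept), 887 several and 895 none. Each of 17118 genes was read through 1 probe set, the one of highest mean signal across the 36 arrays. There are 6954 probe sets that can share targets with other transcripts or have several symbols.

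limma 3.58.1 in R 4.3.3 fitted 1 model to all 36 arrays (12 group means, intensity trend, 24 residual degrees of freedom), so groups share 1 estimate of the spread. The contrasts were daf-16 UV minus daf-16 untreated, the same in N2, and the difference between them. P-values were adjusted by Benjamini-Hochberg over 22548 probe sets. The fitting was tested on simulated data.

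Genes were named as the 12 largest rises and falls whose UV and untreated arrays do not overlap, the 8 largest without UV replicate 3, the 8 highest and lowest in UV replicate 3 against replicates 1 and 2, the 8 largest differences from N2 in each direction, members of gene lists, and daf-16, daf-2 and egl-27. A few genes that rose or fell in daf-16 and differed from N2 were named after their values were seen (such as pals-6 and fat-7). The members and lists were chosen with earlier results of these data known, and 16 entries that did not belong to their list were removed after values were seen. Promoter sequences were not used here. No per-sample column was left unused.

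The alternatives were a model of the compared groups alone, no intensity trend, array weights, quantile normalization, median centring, the replicate number as a block, leaving out dim or shared probe sets, and leaving out each compared array in turn. Leaving out the 3 arrays farthest from their groups was chosen after seeing the data.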

Additional observations from a re-analysis of the deposited data

Results flagged for a closer look

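The UV responses of daf-16 and N2 larvae differed, by the test of the difference itself, in 417 probe sets. The 8 genes whose response was highest in daf-16 relative to N2 were T26E4.4 (1.82 on the log2 scale), F25D1.3 (1.59), nep-16 (1.57), C15F1.2 (1.56), fbxa-209 (1.5), ugt-59 (1.45), R02E4.1 (1.42) and fbxa-72 (1.41). In 7 of them the change in N2 was a fall of larger size than the change in daf-16, and fbxa-72 alone had a positive change in daf-16 (0.52) beside a negative one in N2 (-0.89).

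The 8 genes whose response was lowest relative to N2 were ugt-29 (-1.71), Y60C6A.1 (-1.61), fipr-24 (-1.60), clec-174 (-1.56), far-3 (-1.46), drd-50 (-1.46), col-80 (-1.43) and F55G11.7 (-1.33). All 8 rose in N2. With 1 of the 12 arrays left out, 3 to 8 of the 8 highest and 6 to 8 of the 8 lowest were called. All 16 were called without daf-16 UV replicate 3 or N2 UV replicate 1, and 3 of the 8 highest without daf-16 UV replicate 1, daf-16 untreated replicate 2 or 3, N2 UV replicate 2, or N2 untreated replicate 2 or 3. In the 12 arrays alone 2 of the 8 highest and 7 of the 8 lowest were called.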

How the results depend on the processing

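For the UV response of daf-16, 4288 probe sets were called, against 1970 in a model of the 6 arrays alone (1497 higher and 473 lower, 116 of them at least 2-fold lower) and 2666 without shared probe sets (1522 higher and 1144 lower). Without the 3 arrays that stood apart, an alternative chosen after seeing the data, 1108 were lower, 67 of them at least 2-fold. Leaving out 1 array gave 2369 to 4659 calls, 1664 to 2703 higher and 705 to 1956 lower, with 50 to 443 at least 2-fold lower; the lowest value of each was without UV replicate 3. For the difference from N2, 417 probe sets were called, against 38 in the 12 arrays alone (7 higher and 31 lower), 2444 with array weights (1518 and 926), 187 without shared probe sets (105 and 82) and 2173 without the 3 arrays that stood apart (1421 and 752), and 136 were higher after quantile normalization. Leaving out 1 array gave 97 to 1493 calls, 46 to 985 higher and 51 to 580 lower. The cause of these shifts was not tested. With the replicate block, 4434 probe sets were called in the UV response (2625 higher and 1809 lower) and 532 in the difference. The deviations of UV and untreated daf-16 arrays with the same number correlated at 0.361, 0.091 and 0.178 for replicates 1, 2 and 3. Each was the highest correlation of that UV array, and different numbers gave -0.26 to 0.093. Untreated replicate 2 was as close to UV replicate 3 (0.093) as to UV replicate 2. The numbers were not taken as pairs because the labels state no pairing, and whether they mark pairs is not settled. Of 559 named genes of the UV response none changed direction in an alternative that measured it (362 of them without shared and 521 without dim probe sets); 329 kept their side of the threshold without UV replicate 3 and 305 in the 6 arrays alone. Of 69 genes of the difference 13 did in the 12 arrays alone and 18 to 69 with 1 array left out (18 without N2 UV replicate 2, 67 without daf-16 UV replicate 3). With 3 arrays a group, small changes of dim probe sets cannot be told from the spread.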

Other observations

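Lipid genes are given here for their values. Desaturases introduce double bonds into fatty acids. fat-2 read 12.40, 12.26 and 12.40 in daf-16 UV arrays, against 11.93, 11.83 and 11.91 in untreated arrays (0.46 ± 0.07), and fat-5 read 5.54, 5.91 and 6.05 against 5.32, 5.05 and 5.25 (0.63 ± 0.19, not called without UV replicate 3, adjusted p = 1.2e-01). Of 18 desaturases and elongases 6 rose and 1 fell, and without UV replicate 3, 2 rose and 1 fell. Of 76 lipases and genes of fatty acid breakdown 9 rose (11.8%) and 8 fell (10.5%), near the 11.9% and 8.33% of all genes, and 5 and 3 did so without UV replicate 3. They held the lysosomal lipase gene lipl-1 (0.76) and the hydratase gene ech-9 (0.76) among the rises and the acyl-CoA synthetase genes acs-20 (-1.2) and acs-3 (-1.14) among the falls, both lost without UV replicate 3. The rise of ech-9 was smaller than in N2 (difference -1.17 ± 0.27, adjusted p = 2.3e-02).

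Of 86 neuropeptide genes 7 rose (8.14%, against 11.9% of all genes) and 15 fell, and without UV replicate 3, 6 rose and 1 fell. The rises included the epidermal peptides nlp-27, nlp-28, nlp-29 and nlp-31, which the list holds by name, and nlp-26 (2.21). The falls nlp-9 (-0.70) and flp-7 (-0.62) were not called without UV replicate 3. Of 39 genes of autophagy and the lysosome 7 rose (17.9%, against 11.9% of all genes) and 1 fell. The rises included the proton pump subunit genes vha-7 (0.60) and vha-5 (0.56) and the autophagy receptor gene sqst-1 (0.48).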
